A study of Homo sapiens with 26 samples.

Results

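The inhibitors of DNA binding ID1, ID2, ID3 and ID4, the inhibitory SMADs SMAD6 and SMAD7, the decoy receptor BAMBI and the corepressor SKIL were examined as readouts of BMP and TGF-beta signalling. These 8 genes were taken by name out of the 63086 genes in the count tables, and all 8 were found. RNA had been sequenced from HCT116 cells, a human colorectal carcinoma line, that expressed mCherry-tagged IGF2BP1, an RNA-binding protein that enters stress granules. The transgene was wild type (WT), S181E or Y396E, in which glutamate stands in for a phosphorylated serine or tyrosine of the protein's disordered linkers, or RQ (R167Q, R168Q, R174Q, R178Q), which replaces arginines of the first linker. All of these cells, WT included, carried IGF2BP2 KO, IGF2BP3 KO and Tet-OsTIR1-PURO. Each population received PBS as control or 500 µM sodium arsenite for 2 h, an oxidative stress, and gave 3 libraries per treatment from dishes grown independently, 24 in all. Parental HCT116 cells gave 1 control and 1 arsenite library, without replicates. The transgenes came from lentiviral transduction and each population was sorted by mCherry fluorescence, so each variant was read in 1 sorted population and the variant cannot be told apart from other differences between populations.

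BMP and TGF-beta ligands bind pairs of type I and type II receptor kinases. BMP receptors phosphorylate SMAD1 and SMAD5, TGF-beta and activin receptors SMAD2 and SMAD3, and both classes enter the nucleus with SMAD4. ID1, ID2 and ID3 are direct targets of the BMP branch, and their proteins hold E proteins such as TCF3 away from DNA. SMAD6, SMAD7, BAMBI and SKIL are induced by the pathway and dampen it. HCT116 cells are known for frameshift mutations in TGFBR2, the type II TGF-beta receptor.

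Depth ranged from 22508145 to 50834401 counts per library. The colorectal epithelial markers KRT8, KRT18, KRT19, EPCAM, CDH1 and CDX2 had counts in all 26 libraries, at 18.6 CPM, counts relative to the library's scaled total, or more, whereas VIL1 stayed at or under 0.228 CPM. PTPRC was at 0 in 25 libraries, COL3A1 in 21, and PECAM1 and MYH11 did not exceed 0.316 CPM, while COL1A1, a fibroblast collagen, lay between 6.55 and 11.5 CPM. The summed CPM of these 5 markers of other cell types lay between 6.55 and 11.8 in every group. IGF2BP1 had 10.6 CPM or more in each of the 24 transgenic libraries and 0.348 and 0.646 CPM in the parental libraries. Its control level was 10.6 to 14.7 CPM (WT), 12.2 to 15.6 (RQ), 17.4 to 20.4 (S181E) and 15.3 to 17.6 (Y396E). After arsenite it was 27.9 to 30 CPM (WT), 46.2 to 48 (RQ), 42.7 to 44.1 (S181E) and 42.3 to 44.7 (Y396E). The part of this difference in the comparisons with WT was not tested. Mitochondrial genes took 21.1% to 27.9% of the counts in WT and RQ control cells, 11.7% to 17.1% in S181E and Y396E control cells and 7.55% to 13.5% after arsenite, and the part of this share in the results was not tested. Y396E arsenite replicate 3 stood apart in that 13897 genes had any count, where each other library had 20850 or more, so many results that rest on it are also given without it.

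The promoter sequences are shown first, since SMADs and the AP-1 and CREB families bind short DNA elements, some of which can be looked for by their letters. RefSeq (GRCh38.p14) held start sites for all 8 genes in 10 windows of 300 bases, 250 before and 50 after the start site, of which SMAD7 had 3. They were searched on both strands for the palindromic SMAD box GTCTAGAC, the GC-rich SMAD element GGCGCC, the AP-1 site TGACTCA and the cAMP response element TGACGTCA. The TATA box TATAAA was added after the sequences had been seen. The 250 bases before the start site of 4 genes are given below, 5′ to 3′ on the plus strand, with the matched motifs in capitals.

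SMAD6, chr15:66701986-66702235: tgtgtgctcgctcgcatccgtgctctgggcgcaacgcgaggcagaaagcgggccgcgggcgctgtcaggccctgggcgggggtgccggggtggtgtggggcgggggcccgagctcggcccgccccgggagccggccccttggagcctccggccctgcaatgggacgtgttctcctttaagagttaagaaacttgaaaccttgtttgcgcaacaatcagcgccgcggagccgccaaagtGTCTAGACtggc

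BAMBI, chr10:28677271-28677520: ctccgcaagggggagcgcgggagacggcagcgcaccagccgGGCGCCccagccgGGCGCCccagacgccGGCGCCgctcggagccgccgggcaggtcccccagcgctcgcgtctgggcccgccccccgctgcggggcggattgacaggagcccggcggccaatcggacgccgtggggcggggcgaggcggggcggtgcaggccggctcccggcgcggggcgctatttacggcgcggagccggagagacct

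SKIL, chr3:170357465-170357714: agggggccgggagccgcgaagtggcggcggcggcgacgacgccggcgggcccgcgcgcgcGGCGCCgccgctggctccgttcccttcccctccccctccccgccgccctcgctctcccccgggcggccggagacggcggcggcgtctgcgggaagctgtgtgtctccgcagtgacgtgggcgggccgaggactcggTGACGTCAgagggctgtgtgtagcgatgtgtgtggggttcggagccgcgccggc

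ID1, chr20:31605039-31605288: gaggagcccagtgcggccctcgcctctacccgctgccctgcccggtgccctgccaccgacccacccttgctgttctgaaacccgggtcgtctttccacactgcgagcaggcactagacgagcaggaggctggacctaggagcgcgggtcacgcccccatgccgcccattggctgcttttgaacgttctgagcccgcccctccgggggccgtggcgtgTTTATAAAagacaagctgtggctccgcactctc

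SMAD6 was the member with the palindromic SMAD box, starting 12 bases before its start site, an element held by 0.203% of 34943 promoter windows of this length. BAMBI held the GC-rich element 3 times, the 2 farthest matches starting 209 and 196 bases before the start site, and SKIL held it at 190 bases. That element is common, in 19.2% of the windows. SKIL also held the cAMP response element 54 bases before its start site, as did 1.84% of the windows. A TATA box lay 31 bases before the start site of ID1, overlapped by a match on the other strand at 33 bases, 29 bases before that of ID4 and 35 bases before 1 of the SMAD7 starts, against 11.6% of all windows. The AP-1 site, in 4.96% of the windows, was in none of the 10. A match is a string of letters and no measured binding site, and no match says only that these letters are not in the window.

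**Figure D1:**
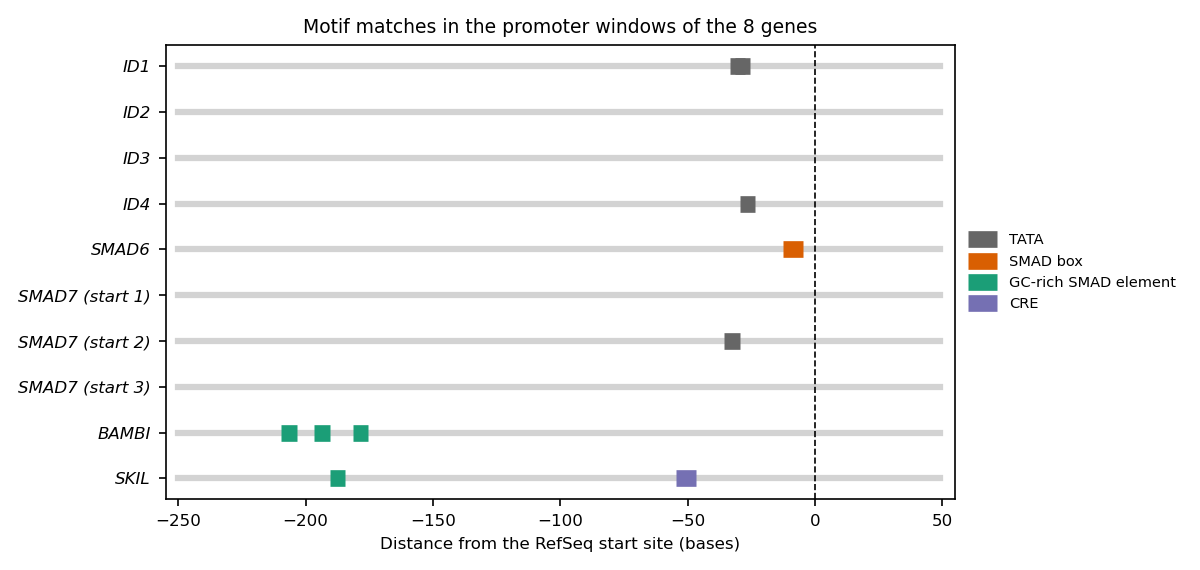
Motif matches (coloured blocks) by distance from the RefSeq start site in bases (dashed line at 0) for the promoter windows of the 8 genes (grey bars, from 250 bases before to 50 after the start). SMAD6 has the SMAD box, BAMBI and SKIL have the GC-rich element, and SKIL has the cAMP response element at 54 bases before its start.

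In unstressed cells the ID genes ID1, ID2 and ID3 were far more abundant than the inhibitors of the pathway. On the scale of CPM per kilobase of counted exon, the levels in WT control cells were 178.9 for ID1, 176.4 for ID3 and 131.8 for ID2. SMAD6 followed at 2.23, BAMBI at 1.22, SKIL at 0.773, SMAD7 at 0.193 and ID4 at 0.0855. ID1 and ID3 were neighbours in this order and did not differ beyond their spread (SD of 7.56 and 17.8 CPM per kilobase, n = 3). ID4 had 7, 11 and 9 counts in the WT control libraries, SMAD7 24, 14 and 19.

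Genes were tested at more than 10 CPM in at least 12 of the 24 libraries, which 4 of the 8 passed, ID1, ID2, ID3 and SKIL. SKIL passed through the 12 arsenite libraries alone and was above 10 CPM in 0 control libraries, so its rise with arsenite is also given from a wider filter. That filter kept genes above 0.318 CPM in enough libraries, 12934 in all, and was used for SMAD6, SMAD7, BAMBI and ID4. ID4 passed it with 7 libraries, and all its values rest on 0 to 24 counts per library. A gene was called changed at an edgeR adjusted p under 0.05 and a fold above 1.2, and each change is given on the log2 scale with its standard error.

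**Figure D2:**
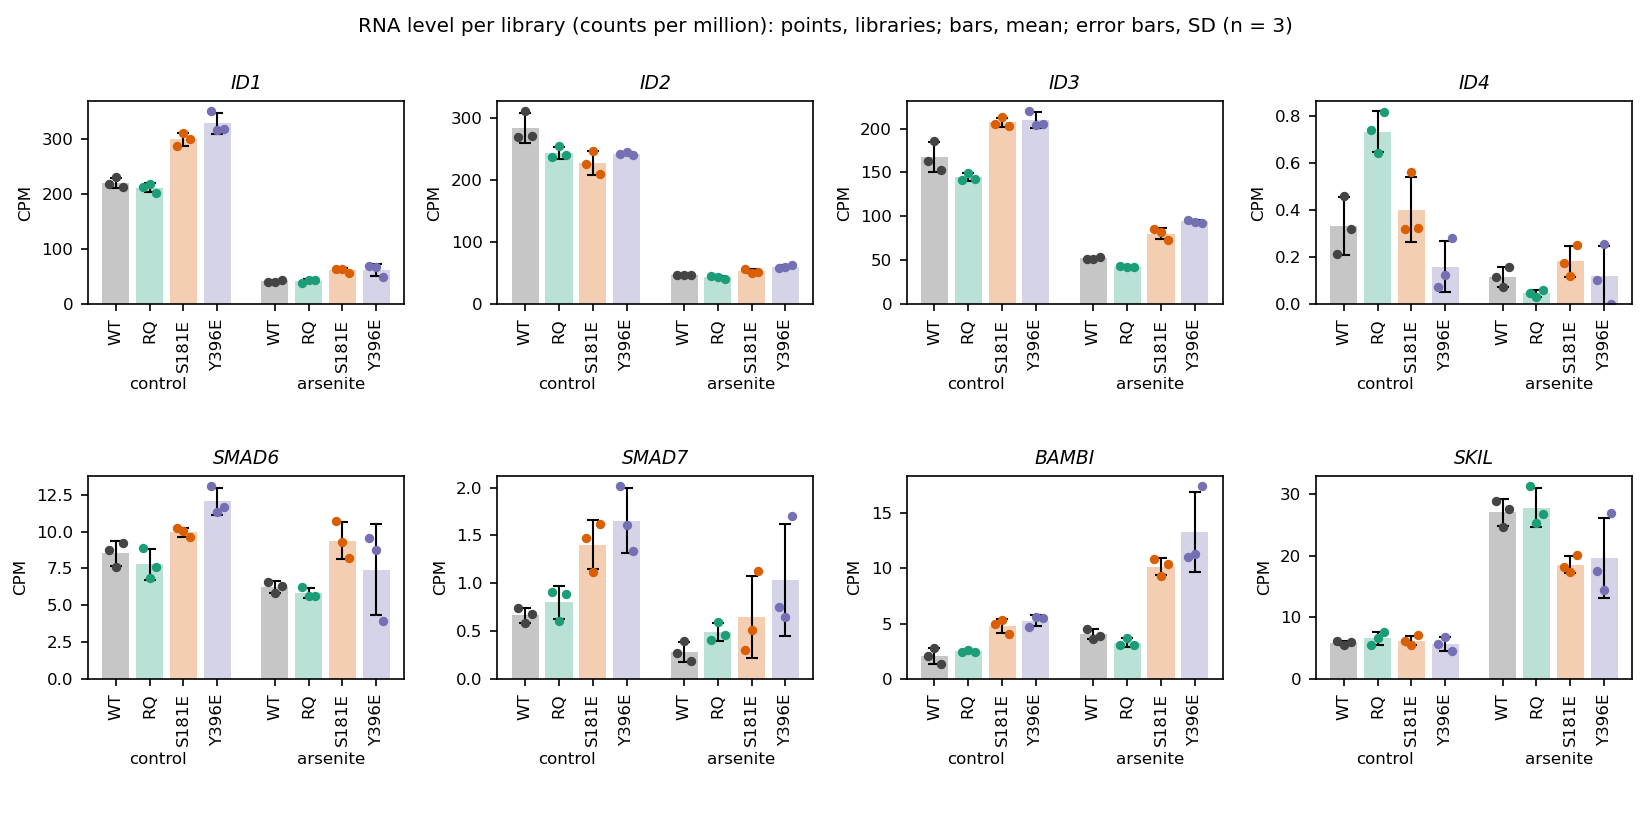
CPM of each gene in the 24 libraries (points), with the mean (bar) and SD (error bar) of the 3 libraries of a group, by population and treatment, each panel on its own linear axis from 0. ID1, ID2 and ID3 are lower and SKIL is higher in arsenite in each population, and BAMBI stands above its WT and RQ levels in the S181E and Y396E panels.

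Arsenite lowered the ID genes and raised SKIL in WT cells. ID1, ID2 and ID3 fell 5.28-fold, 6.09-fold and 3.22-fold, and SKIL rose 4.59-fold. BAMBI rose 1.92-fold, while the inhibitory SMADs SMAD6 and SMAD7 fell. All 4 genes above 10 CPM were called, where 72.2% of the 9099 genes tested were, and 7 of the 8 were called under the wider filter, where 61.2% of genes were. A call was thus the common outcome after arsenite. The median change of the 4 genes was -2.04, against -0.01 over all genes tested.

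ID1 (ENSG00000125968.9, chr20:31605283-31606515 in hg38) had 218, 231 and 213 CPM in the WT control libraries and 40.3, 40.6 and 44.4 CPM in the arsenite libraries. The groups were far apart. Its change was -2.40 ± 0.09 (adjusted p = 8.54e-18). In bulk RNA, less of a transcript per cell and fewer cells that express it cannot be told apart.

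ID2 (ENSG00000115738.10, chr2:8678845-8684461) had the largest fall of the members above 10 CPM. Its WT control libraries held 268, 311 and 271 CPM and its arsenite libraries 46.4, 45.96 and 47.2 CPM, a change of -2.61 ± 0.07 (adjusted p = 5.13e-21). ID3 (ENSG00000117318.9, chr1:23557926-23559501, minus strand) went from 163, 186 and 153 CPM to 51.3, 50.8 and 53.8 CPM. Its change of -1.69 ± 0.06 (adjusted p = 9.06e-18) was the smallest among these 3 ID genes.

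SKIL (ENSG00000136603.15, chr3:170357342-170396835) encodes SnoN, a corepressor that binds SMAD2, SMAD3 and SMAD4. Its WT libraries held 6.16, 5.53 and 5.95 CPM in control and 29.0, 24.7 and 27.5 CPM in arsenite. The change was 2.20 ± 0.18 (adjusted p = 4.58e-11) and 2.17 ± 0.18 under the wider filter. SKIL moved opposite to SKI, its closest relative, which fell by 1.23.

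BAMBI (ENSG00000095739.11, chr10:28677521-28682932) resembles a type I receptor without a kinase domain. It had 2.09, 2.75 and 1.35 CPM in WT control and 4.51, 3.64 and 3.92 CPM in arsenite, groups that did not overlap, with a change of 0.94 ± 0.21 (adjusted p = 0.000316). SMAD6 (ENSG00000137834.15, chr15:66702236-66782849), which blocks BMP receptors, had 8.74, 7.62 and 9.26 CPM in control and 6.61, 5.81 and 6.34 CPM in arsenite. Its fall of -0.48 ± 0.20 was near the threshold (adjusted p = 0.0416). It was not called when any 1 of 5 of the 6 WT libraries was left out (adjusted p from 0.057 to 0.119). Library totals only also lost the call (-0.30, adjusted p = 0.193). Without Y396E arsenite replicate 3 in the fit the adjusted p was 0.000186. SMAD7 (ENSG00000101665.10, chr18:48919853-48950965, minus strand), which recruits SMURF ubiquitin ligases to type I receptors, went from 24, 14 and 19 counts to 7, 16 and 7 counts. On the CPM scale these groups did not overlap (0.736, 0.583 and 0.676 against 0.272, 0.391 and 0.184), and its change was -1.24 ± 0.48 (adjusted p = 0.0264). It was not called without WT arsenite replicate 1 (-1.22, adjusted p = 0.0578) or 3 (-0.997, adjusted p = 0.113). Nor was it called without WT control replicate 1 (-1.16, adjusted p = 0.0696) or 3 (-1.23, adjusted p = 0.0508). Library totals only lost the SMAD7 call as well (-1.07, adjusted p = 0.0597), while without Y396E arsenite replicate 3 the adjusted p was 0.00645. ID4 (ENSG00000172201.12, chr6:19837370-19842197) held 27 counts over the 3 control and 12 over the 3 arsenite libraries and was not called (adjusted p = 0.0667). It passed without Y396E arsenite replicate 2 (adjusted p = 0.0435) or 3 (adjusted p = 0.0171) and with only the groups compared (adjusted p = 0.0321).

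The same directions were measured for the ID genes and SKIL in the other populations. All 4 were called in the RQ, S181E and Y396E populations, beside 72.9%, 65.3% and 65.8% of all genes. ID1 changed by -2.33 ± 0.09 (RQ), -2.29 ± 0.09 (S181E) and -2.42 ± 0.09 (Y396E). ID2 changed, in the same order, by -2.51 ± 0.07, -2.10 ± 0.07 and -2.01 ± 0.06, and ID3 by -1.77 ± 0.06, -1.37 ± 0.06 and -1.16 ± 0.06. SKIL rose by 2.08 ± 0.18, 1.58 ± 0.18 and 1.81 ± 0.18, and by 2.07, 1.55 and 1.78 under the wider filter. Without Y396E arsenite replicate 3 the rise of SKIL in Y396E was 1.51 ± 0.14.

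Under the wider filter 5, 6 and 6 of the 8 genes were called in these populations, where 61.9%, 55.2% and 57.9% of genes were. BAMBI rose in S181E (1.06 ± 0.19, adjusted p = 2.51e-05) and in Y396E (1.31 ± 0.19, adjusted p = 1.13e-06, and 1.07 without Y396E arsenite replicate 3). In RQ its libraries went from 2.39, 2.65 and 2.41 CPM to 3.05, 3.73 and 3.02 CPM, groups that did not overlap, with a change of 0.38 ± 0.21 that was not called (adjusted p = 0.112). It was called there without Y396E arsenite replicate 3, which lowers the spread estimated for all groups (0.39, adjusted p = 0.04).

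The inhibitory SMADs gave less even values. SMAD6 fell in Y396E (-0.73 ± 0.20, adjusted p = 0.00231), where 1 library decides its size: the arsenite libraries held 9.58, 8.79 and 3.90 CPM, and without the third the fall was -0.42 (adjusted p = 0.00127). Its change was -0.44 ± 0.21 in RQ (adjusted p = 0.0636) and -0.12 ± 0.20 in S181E (adjusted p = 0.612). In RQ SMAD6 was called under 6 alternatives, among them the fit without Y396E arsenite replicate 3 (adjusted p = 0.000741). SMAD7 fell in S181E (-1.09 ± 0.43, adjusted p = 0.0303), though its arsenite libraries at 0.305, 0.514 and 1.13 CPM overlapped the control libraries at 1.47, 1.12 and 1.62 CPM. That call was lost without S181E arsenite replicate 1 (-0.78, adjusted p = 0.146) or 2 (-0.94, adjusted p = 0.104) and without S181E control replicate 1 (-1.06, adjusted p = 0.0654) or 3 (-0.97, adjusted p = 0.0907), and without S181E arsenite replicate 3 the fall was -1.79. SMAD7 changed by -0.72 ± 0.46 in RQ and -0.71 ± 0.41 in Y396E and was not called in either, but in Y396E it was called without arsenite replicate 3 (-1.28, adjusted p = 0.000837).

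In the fit reported, ID4 was called in RQ and in no other population. Its mean control level was 0.733 CPM in RQ, against 0.331 CPM in WT, 0.401 CPM in S181E and 0.159 CPM in Y396E. It held 22, 16 and 24 counts in the RQ control libraries and 1, 1 and 2 counts in the arsenite libraries, the lowest of any group, and was called (adjusted p = 9.39e-05). Its passage through the filter rested on control libraries alone, 7 of 7, so it is also given without a filter, where the adjusted p was 0.00022. With so few counts the fitted change depends on the prior count. The ratio of its summed counts per total, arsenite to control, was 0.0737 (95% exact interval 0.0195 to 0.199, counting error only). The ratio was 0.428 in WT (0.198 to 0.875), 0.527 in S181E (0.278 to 0.959) and 0.857 in Y396E (0.392 to 1.9). The Y396E arsenite libraries held 3, 13 and 0 counts, and without replicate 3, at 0, the fitted change in Y396E was 0.21 ± 0.61 (adjusted p = 0.772). The difference between the RQ and WT responses did not pass the test (adjusted p = 1).

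**Figure D3:**
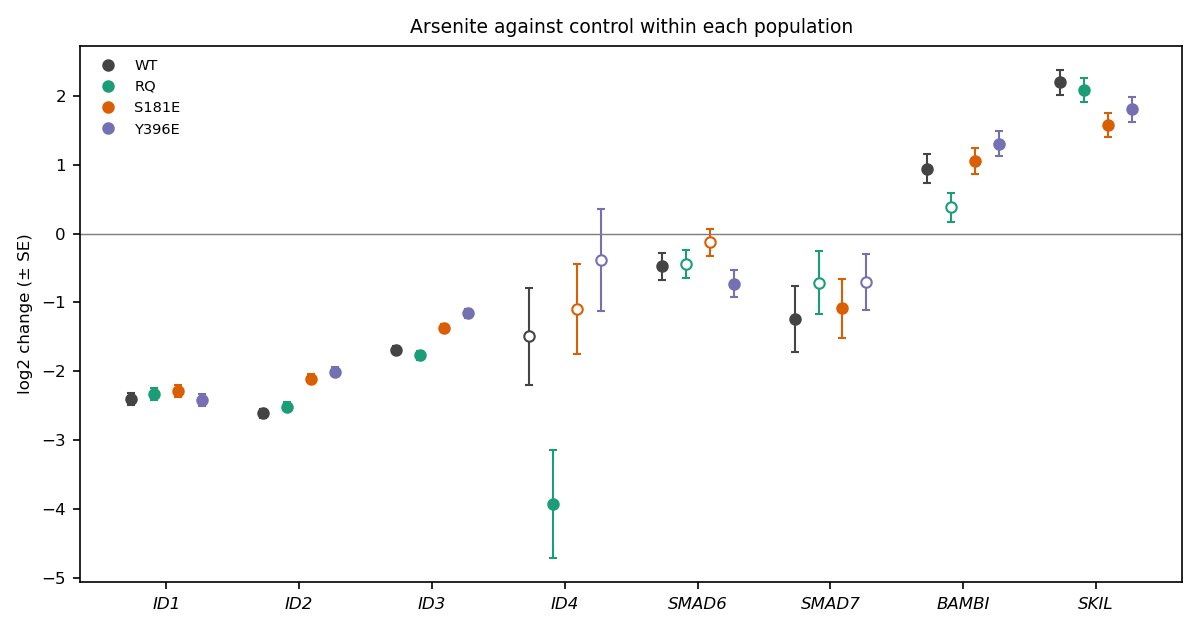
Log2 change with arsenite (± SE) of the 8 genes in WT, RQ, S181E and Y396E cells, from 3 control and 3 arsenite libraries each. Filled points passed the test and open points did not; ID1, ID2, ID3 and SKIL are from the fit of genes above 10 CPM and the other genes from the wider filter. ID2 and ID3 lie closer to 0 in S181E and Y396E than in WT.

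In unstressed cells, S181E and Y396E held more ID1, ID3 and BAMBI than WT. ID2 was lower in S181E, and SKIL did not pass the test in either. These comparisons share the 3 WT libraries. Of the 4 genes above 10 CPM, 3 were called in S181E and 2 in Y396E, where 31.1% and 28.6% of all genes were called, and under the wider filter 4 of 8 were called in each, where 25.6% and 23.6% of genes were. The median change of the 4 genes was 0.19 in S181E and 0.13 in Y396E, against 0.02 over all genes in both.

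ID1 had 288, 311 and 301 CPM in S181E and 352, 318 and 319.7 CPM in Y396E. Every one of these 6 libraries lay above the WT libraries, the highest of which held 231 CPM. ID1 rose by 0.44 ± 0.08 in S181E (adjusted p = 8.25e-05) and by 0.58 ± 0.08 in Y396E (adjusted p = 3.34e-06).

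ID3 rose by less. Its libraries held 206, 213 and 202 CPM in S181E and 220.0, 204 and 205 CPM in Y396E, above the highest WT library at 186 CPM, with changes of 0.30 ± 0.06 (adjusted p = 0.000169) and 0.32 ± 0.06 (adjusted p = 9.46e-05). The call in S181E was lost without WT control replicate 3, where the change of 0.24 was under the fold threshold (adjusted p = 0.00213).

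ID2 went the other way. Its libraries held 225, 246 and 209 CPM in S181E and 241, 245 and 239.9 CPM in Y396E, all under the lowest WT library at 268 CPM. The change was -0.32 ± 0.06 in S181E (adjusted p = 0.000118) and -0.23 ± 0.06 in Y396E, where the adjusted p was 0.00368 but the fold of 1.17 stayed under the threshold. The S181E call was lost without WT control replicate 2 (-0.25, adjusted p = 0.00168) and when libraries were scaled by totals alone (-0.16, adjusted p = 0.0179), and in Y396E ID2 passed without WT control replicate 1 (-0.27, adjusted p = 0.00284).

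BAMBI had the largest difference of the members called in both populations. It held 4.95, 5.34 and 4.05 CPM in S181E and 4.69, 5.56 and 5.54 CPM in Y396E against 1.35 to 2.75 CPM in WT, so the groups did not overlap. The changes were 1.23 ± 0.21 (adjusted p = 5.6e-05) and 1.35 ± 0.21 (adjusted p = 2.02e-05).

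The inhibitory SMADs lay above WT, with fewer calls. SMAD7 held 1.47, 1.12 and 1.62 CPM in S181E and 2.02, 1.61 and 1.34 CPM in Y396E, all above the WT range of 0.583 to 0.736 CPM. It rose in Y396E (1.30 ± 0.43, adjusted p = 0.0224) and in S181E gave 1.08 ± 0.43 (adjusted p = 0.0532). Without Y396E arsenite replicate 3 in the fit it was called in both (adjusted p = 0.000911 and 0.00427), and the Y396E call was lost without WT control replicate 2 (adjusted p = 0.0791), WT control replicate 3 (adjusted p = 0.0534) or Y396E control replicate 1 (adjusted p = 0.0838). SMAD6 held 10.2, 10.0 and 9.63 CPM in S181E and 13.1, 11.4 and 11.7 CPM in Y396E, all above the WT libraries, with changes of 0.23 ± 0.20 (adjusted p = 0.405) and 0.49 ± 0.20 (adjusted p = 0.0602). The latter passed without Y396E arsenite replicate 3 (0.49 ± 0.10, adjusted p = 0.000242). SKIL, at 5.45 to 7.04 CPM in S181E and 4.45 to 6.83 CPM in Y396E, overlapped WT, with changes of 0.08 ± 0.19 and -0.07 ± 0.20, and ID4 was not called.

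After arsenite, ID1, ID3 and BAMBI were again higher than in WT in both S181E and Y396E, and SKIL was lower. ID2 and SMAD7 were higher in Y396E and SMAD6 in S181E. Of the 4 genes above 10 CPM, 3 were called in S181E and all 4 in Y396E, where 13.7% and 21.7% of all genes were called. Under the wider filter 5 and 6 of the 8 were called, where 12.1% and 20.5% of genes were. The median change of the 4 was 0.37 and 0.47, against -0.01 and 0.00 over all genes.

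ID3 differed most among the ID genes. Its arsenite libraries held 85.8, 82.0 and 72.8 CPM in S181E and 96.1, 94.0 and 92.2 CPM in Y396E, against 50.8 to 53.8 CPM in WT, so that no library overlapped. The changes were 0.62 ± 0.06 (adjusted p = 2.82e-08) and 0.86 ± 0.06 (adjusted p = 7.08e-11).

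ID1 held 63.5, 63.9 and 57.0 CPM in S181E and 69.1, 66.7 and 49.3 CPM in Y396E, again all above WT at 40.3 to 44.4 CPM. It was higher by 0.55 ± 0.09 (adjusted p = 3.93e-05) and 0.56 ± 0.09 (adjusted p = 2.09e-05), and in Y396E by 0.70 without arsenite replicate 3. ID2, whose control libraries lay under those of WT, lay above them after arsenite. It held 56.0, 50.4 and 51.9 CPM in S181E and 57.2, 60.2 and 63.0 CPM in Y396E against 45.96 to 47.2 CPM in WT. The rise passed in Y396E (0.37 ± 0.06, adjusted p = 8.79e-05), and in S181E 0.18 ± 0.07 was under the fold threshold (adjusted p = 0.0489).

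SKIL held 18.1, 17.4 and 20.2 CPM in S181E arsenite libraries, all under the lowest WT library at 24.7 CPM, a change of -0.54 ± 0.16 (adjusted p = 0.0186). In Y396E it held 17.5, 14.5 and 27.0 CPM. The third library overlapped WT, and the change was -0.46 ± 0.16 (adjusted p = 0.0297), or -0.77 without that library (adjusted p = 5.99e-06). Both calls depended on single libraries. In S181E the call was lost without S181E arsenite replicate 1 (adjusted p = 0.0636) or 2 (adjusted p = 0.0783) and in Y396E without Y396E arsenite replicate 1 (-0.39, adjusted p = 0.0889) or 2 (-0.27, adjusted p = 0.162). Leaving out WT arsenite replicate 1 or 3 lost it in S181E (adjusted p = 0.0724 and 0.0555) and in Y396E (adjusted p = 0.0979 and 0.0754).

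BAMBI held 10.8, 9.32 and 10.4 CPM in S181E and 11.1, 11.3 and 17.5 CPM in Y396E against 3.64 to 4.51 CPM in WT, with no overlap. It was higher by 1.34 ± 0.19 (adjusted p = 1.14e-05) and 1.72 ± 0.19 (adjusted p = 1.93e-07), and in Y396E by 1.49 without arsenite replicate 3. SMAD7 held 0.750, 0.643 and 1.71 CPM in Y396E, all above WT, and was higher by 1.83 ± 0.46 (adjusted p = 0.00454), or 1.25 without that replicate (adjusted p = 0.0223). In S181E its libraries overlapped WT, at 1.24 ± 0.48 (adjusted p = 0.0788), and it passed without S181E arsenite replicate 1 (1.55, adjusted p = 0.035) or Y396E arsenite replicate 3 (1.30, adjusted p = 0.0117), and without S181E arsenite replicate 3 its change was 0.53.

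SMAD6 was higher in S181E, where 10.7, 9.28 and 8.19 CPM stood above 5.81 to 6.61 CPM in WT, by 0.58 ± 0.20 at the edge of the threshold (adjusted p = 0.0467). The call held in 7 of the 24 fits that left out 1 library, with changes from 0.48 to 0.68. Among these 7, the fit without Y396E arsenite replicate 3 gave 0.58 ± 0.11 (adjusted p = 8.85e-05). In Y396E its change of 0.24 ± 0.20 was not called (adjusted p = 0.389), and it passed without arsenite replicate 3 (0.55 ± 0.12, adjusted p = 0.00042). ID4 was not called in either.

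**Figure D4:**
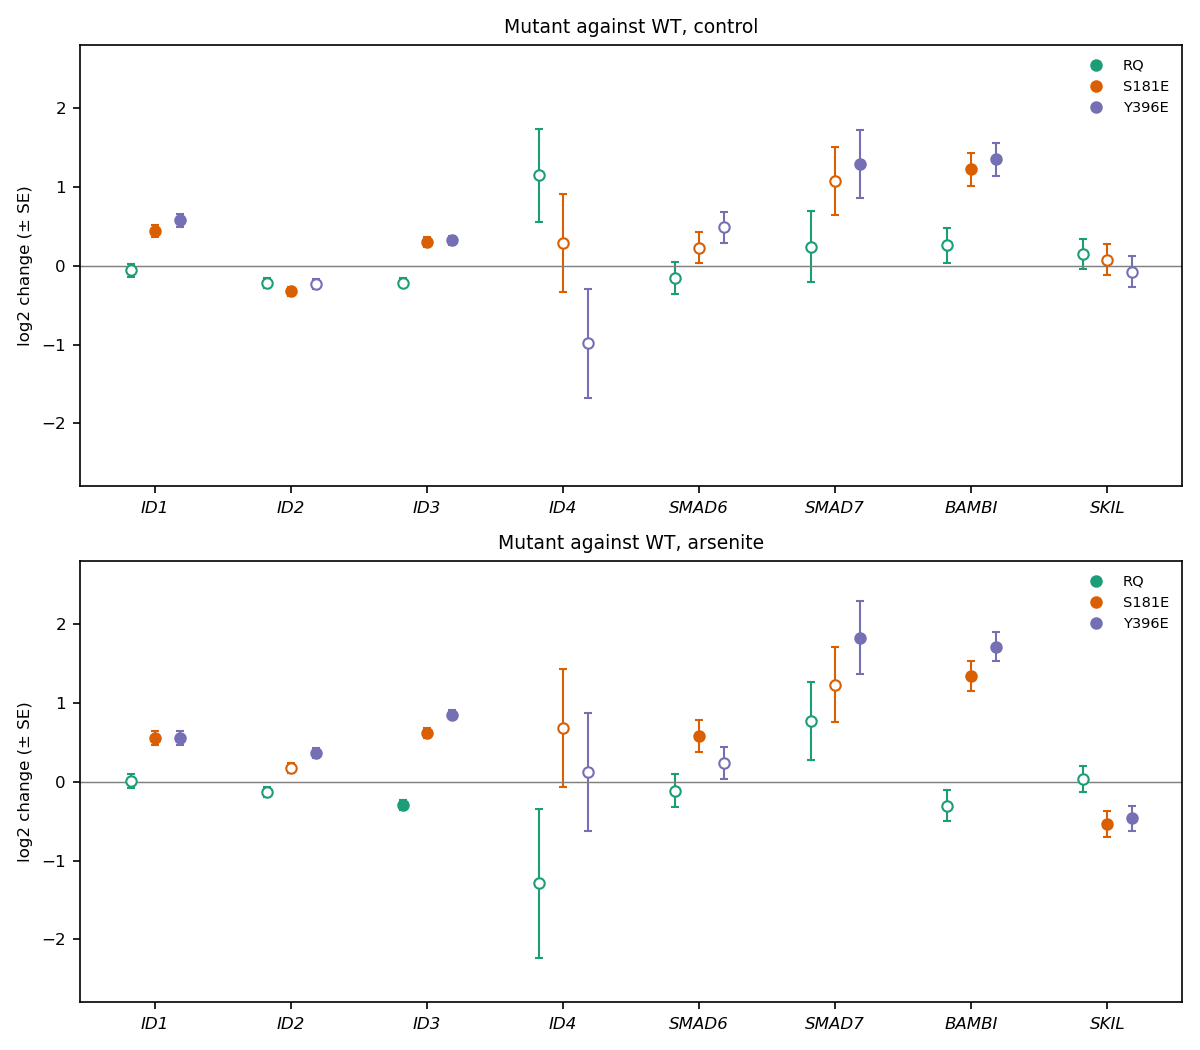
Log2 difference from WT (± SE) of the 8 genes in RQ, S181E and Y396E, in control (upper panel) and arsenite (lower panel), from 3 libraries per group. Filled points passed the test and open points did not; ID1, ID2, ID3 and SKIL are from the fit of genes above 10 CPM and the other genes from the wider filter. BAMBI, ID1 and ID3 lie above 0 in S181E and Y396E under both treatments, while ID2 moves from below to above 0 and SKIL to below 0.

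The size of the arsenite response itself differed from WT for ID2 and ID3, and not for ID1. The fall of ID2 was smaller by 0.50 ± 0.09 in S181E (adjusted p = 0.00072) and by 0.60 ± 0.09 in Y396E (adjusted p = 7.4e-05). That of ID3 was smaller by 0.32 ± 0.09 (adjusted p = 0.0126) and 0.53 ± 0.09 (adjusted p = 0.000174). ID2 stood at 46.4, 45.96 and 47.2 CPM in WT arsenite libraries and at 50.4 CPM or more in those of S181E and Y396E. Its control libraries also differed, at 268 to 311 CPM in WT, 209 to 246 CPM in S181E and 239.9 to 245 CPM in Y396E. In S181E ID2 differed from WT by -0.32 in control and by 0.18 in arsenite, so its smaller fall there holds mostly the lower control level. For ID1 the difference was 0.11 ± 0.12 (adjusted p = 0.557) and -0.02 ± 0.12 (adjusted p = 0.917). Without Y396E arsenite replicate 3 the ID1 difference in Y396E was 0.12 (adjusted p = 0.276). The ID3 call in S181E was lost without WT control replicate 2 (0.24, adjusted p = 0.0481) and with library totals only (0.20, adjusted p = 0.045), both under the fold threshold.

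These were 2 of 4 genes in each population, where 16.4% and 21.5% of all genes were called, and 2 of 8 under the wider filter, where 10.6% and 14% were. The SKIL response differed from that of WT by -0.62 ± 0.25 in S181E (adjusted p = 0.0866) and -0.39 ± 0.26 in Y396E (adjusted p = 0.264). Without Y396E arsenite replicate 3 the SKIL difference passed in S181E (-0.62 ± 0.18, adjusted p = 0.00916) and in Y396E (-0.68 ± 0.19, adjusted p = 0.00785), and in S181E also without Y396E arsenite replicate 2 (adjusted p = 0.0479). In S181E it passed too with library totals only (-0.73, adjusted p = 0.0474) and with only the groups compared (-0.61, adjusted p = 0.00309). For BAMBI the responses differed from that of WT by 0.12 ± 0.28 in S181E and 0.36 ± 0.28 in Y396E and were not called, nor were those of SMAD6, SMAD7 and ID4. Without Y396E arsenite replicate 3 the BAMBI difference in Y396E was 0.13.

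Few members were called between RQ and WT. In control edgeR called 0 of the 4 and 0 of the 8 genes, as did DESeq2. Of all genes, edgeR called 1.43% and 0.982%. At an unadjusted p under 0.05 there were 1285 genes above 10 CPM and 1517 under the wider filter. With either filter 2 members, ID2 and ID3, were among them. ID2 held 236, 254 and 239.9 CPM and ID3 141, 149.6 and 142 CPM, each group under its 3 WT libraries, with changes of -0.22 ± 0.06 (adjusted p = 0.0571) and -0.21 ± 0.06 (adjusted p = 0.0577). ID3 passed without WT control replicate 3 (-0.28, adjusted p = 0.0196). ID1 at 214, 219.6 and 203 CPM overlapped WT (-0.06 ± 0.08).

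After arsenite ID3 was lower in RQ than in WT, at 43.2, 42.2 and 41.8 CPM against 50.8 to 53.8 CPM. This change of -0.29 ± 0.06 (adjusted p = 0.00997) was the 1 call among the 4 genes and among the 8, where 1.52% and 1.03% of genes were called. It was lost without RQ arsenite replicate 3 (-0.29, adjusted p = 0.083) or WT arsenite replicate 3 (-0.27, adjusted p = 0.0796). BAMBI in RQ, at 3.02 to 3.73 CPM in arsenite, gave -0.30 ± 0.20 (adjusted p = 0.769). For the arsenite response of RQ against that of WT, edgeR and DESeq2 called 0 members, where edgeR called 0.22% of genes above 10 CPM and 0.124% under the wider filter. ID4 was the 1 member with an unadjusted p under 0.05, among 410 such genes under the wider filter. The ID gene differences were 0.07 ± 0.12 for ID1, 0.09 ± 0.09 for ID2 and -0.08 ± 0.09 for ID3.

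Y396E and S181E were compared directly. The edgeR test called 0% of genes with either filter, in control and in arsenite, so 0 members passed, and DESeq2 called 0 members too. At an unadjusted p under 0.05 there were 289 genes in control, 0 of them members, and 1375 in arsenite, of which ID2 and ID3 were members. Under the wider filter, with 1846 such genes in arsenite, BAMBI was added (0.38 ± 0.18, adjusted p = 0.341, and 0.14 without Y396E arsenite replicate 3). In arsenite ID3 was higher in Y396E by 0.23 ± 0.06 (unadjusted p = 0.000786 from edgeR, adjusted p = 0.263) and ID2 by 0.19 ± 0.07 (adjusted p = 0.263), with all 3 Y396E libraries above the S181E libraries for both. In control the differences were 0.14 ± 0.08 for ID1, 0.10 ± 0.06 for ID2, 0.02 ± 0.06 for ID3 and 0.13 ± 0.19 for BAMBI, each with an adjusted p of 1. A p that misses the threshold does not show that the populations are alike.

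The parental libraries, described without a test, held ID1 at 113 CPM in control and 31.4 CPM in arsenite, ID2 at 212 and 50.4 CPM, and ID3 at 175 and 50.3 CPM. All 3 were lower after arsenite. SKIL was at 5.53 and 16.02 CPM, BAMBI at 2.92 and 6.63 CPM, SMAD6 at 4.28 and 3.32 CPM, SMAD7 at 1.60 and 0.815 CPM, and ID4 had 19 and 4 counts. ID1 and SMAD6 in parental control were under each of the 12 transgenic control libraries. SMAD7 in parental control lay above the WT control libraries, at 0.583 to 0.736 CPM. In arsenite, parental BAMBI lay above and parental SKIL below all WT libraries. Each parental value is from a single library.

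The pathway around these genes was read from lists of its parts. In WT cells with arsenite the receptors moved mostly down, with 1 of 8 tested higher, 6 lower and 1 not called. The type I receptors TGFBR1 and ACVR1B fell by 1.34 and 1.22, the type II receptor ACVR2B fell by 0.98, and ACVR2A, above 10 CPM in 0 control libraries, rose by 0.51 (0.49 ± 0.12 under the wider filter). Like SKIL, ACVR2A and MSX2 entered the first fit through arsenite libraries alone, and the tallies of higher genes hold them. Of 5 receptor-regulated and common SMADs, SMAD3 (-1.24 ± 0.07) and SMAD2 (-0.43 ± 0.09) of the TGF-beta branch fell, whereas SMAD1 of the BMP branch (0.61 ± 0.11) and the shared partner SMAD4 (0.50 ± 0.08) rose. SMAD5 was not called.

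Ligands and antagonists above 10 CPM fell or were not called. Of 4 ligands, TGFB1 (-0.63 ± 0.06) and BMP4 (-0.54 ± 0.07) fell, and the 2 antagonists tested, FSTL3 and TWSG1, fell by 0.88 and 0.84. Under the wider filter 6 antagonists were tested, of which the same 2 were lower, 2 higher and 2 not called. The 2 higher were CHRD (0.46 ± 0.15, adjusted p = 0.0104) and GREM1, named after their values were seen. GREM1 had 0 counts in each WT control library and 7 to 16 counts in the arsenite libraries, too few for a fold. Among 6 intracellular regulators, SKI (-1.23 ± 0.07) and the ubiquitin ligase SMURF2 (-0.60 ± 0.04) fell and TGIF1 and SMURF1 rose by 0.45 and 0.44. The 6 other SMAD target genes reported here were divided, with 3 higher, 1 lower and 2 not called. JUNB, an AP-1 subunit, rose by 2.62, MSX2 by 1.28 with 0 control libraries above 10 CPM (1.25 ± 0.13 under the wider filter), and KLF10 by 0.30, while CCN2, a matricellular protein, fell by 0.51. The E proteins TCF3 and TCF12, which ID proteins bind, were not called. Under the wider filter TCF3 changed by -0.256 ± 0.05 (adjusted p = 6.97e-05) and TCF12 by 0.232 ± 0.09 (adjusted p = 0.0333). Both were under the fold threshold and went in opposite directions. The median change was -0.86 for the 2 antagonists and 0.01 for the 2 E proteins, against -0.01 over all genes. For the 6 antagonists under the wider filter the median was 0.19.

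Among these lists the ligand BMP4, which signals through SMAD1 and SMAD5, had the largest rise in S181E and Y396E. It held 279.1 to 286.8 CPM in S181E control, 268.9 to 292.0 CPM in Y396E control and 85.7 to 105.8 CPM in WT control, groups without overlap. It was higher by 1.60 ± 0.07 in S181E (adjusted p = 8.3e-15) and 1.59 ± 0.07 in Y396E (adjusted p = 8.27e-15), and in arsenite by 1.33 ± 0.07 and 1.31 ± 0.07. In RQ BMP4 was lower than in WT, by -0.31 ± 0.07 in control (adjusted p = 0.0168, lost without RQ control replicate 3 at -0.24, adjusted p = 0.112, or WT control replicate 2 at -0.22, adjusted p = 0.0614) and by -0.45 ± 0.07 in arsenite (adjusted p = 0.00044). BMP4 thus moved in the direction of ID1 and ID3 in S181E and Y396E in control. ID2 went the other way there, by -0.32 in S181E (called) and -0.23 in Y396E (not called). Whether the BMP4 level bears on those of the ID genes was not tested.

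Other pathway genes also differed in S181E and Y396E controls. The homeobox gene MSX1, a BMP target, rose by 0.64 ± 0.05 and 0.73 ± 0.05. It held 125 to 141 CPM in WT, 199 to 208 CPM in S181E and 214 to 219 CPM in Y396E. Of the other SMAD target genes reported here, MSX1 was the 1 called higher in S181E, where more were lower. In Y396E as many of them were lower as higher. CCN2 was lower by -0.44 ± 0.11 and -0.43 ± 0.11, and its Y396E libraries overlapped those of WT. Of the 8 receptors, 3 were lower in S181E and 4 in Y396E, and 0 were higher. BMPR2, the type II BMP receptor, had -0.46 ± 0.10 and -0.32 ± 0.10. Of 4 ligands, BMP4 was the 1 higher in each population and TGFB1 was lower in S181E (-0.29 ± 0.06, adjusted p = 0.000174). The 5 receptor-regulated and common SMADs had 0 called in S181E and 1 higher (SMAD5, 0.28) and 1 lower (SMAD3, -0.39) in Y396E, named after their values were seen.

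In arsenite BMP4 and MSX1 (0.64 ± 0.05 in S181E and 0.81 ± 0.05 in Y396E) were again higher than in WT. TGFBR2 was lower by -0.69 ± 0.07 and -0.65 ± 0.07, JUNB in S181E by -0.31 ± 0.07, and ACVR2B in Y396E by -0.39 ± 0.13 (adjusted p = 0.0256). The ACVR2B call was lost without WT arsenite replicate 1 (-0.35, adjusted p = 0.0826) or 2 (-0.40, adjusted p = 0.0532) or Y396E arsenite replicate 3 (-0.21, adjusted p = 0.133). The 5 SMADs had 0 called in either population.

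The arsenite response of CCN2 differed from that of WT by 0.59 ± 0.16 in S181E and 0.52 ± 0.16 in Y396E. TGFBR2 fell further than in WT by -0.49 ± 0.10 and -0.45 ± 0.10. KLF10 in S181E (-0.29 ± 0.08) and the E protein TCF12 in Y396E (-0.39 ± 0.13) also differed from WT. Single libraries decided the call for CCN2 in Y396E, which was lost without WT arsenite replicate 2 (adjusted p = 0.0558), WT control replicate 1 (adjusted p = 0.0763) or Y396E control replicate 3 (adjusted p = 0.0802). It was also lost with library totals only (adjusted p = 0.0679) and with only the groups compared (adjusted p = 0.0694). For TCF12 the call was lost in 6 of the 24 fits without 1 library, among them that without Y396E arsenite replicate 3 (-0.24, adjusted p = 0.042, under the fold threshold). In RQ, beside BMP4, SMURF2 was higher in control (0.26 ± 0.04, at the fold threshold). SMURF2 was under the threshold without RQ control replicate 3 (0.22) or WT control replicate 2 (0.23), under the wider filter (0.249) and with no filter (0.248). Its call was also lost with library totals only (0.21, adjusted p = 0.0696) and with only the groups compared (adjusted p = 0.0854).

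**Figure D5:**
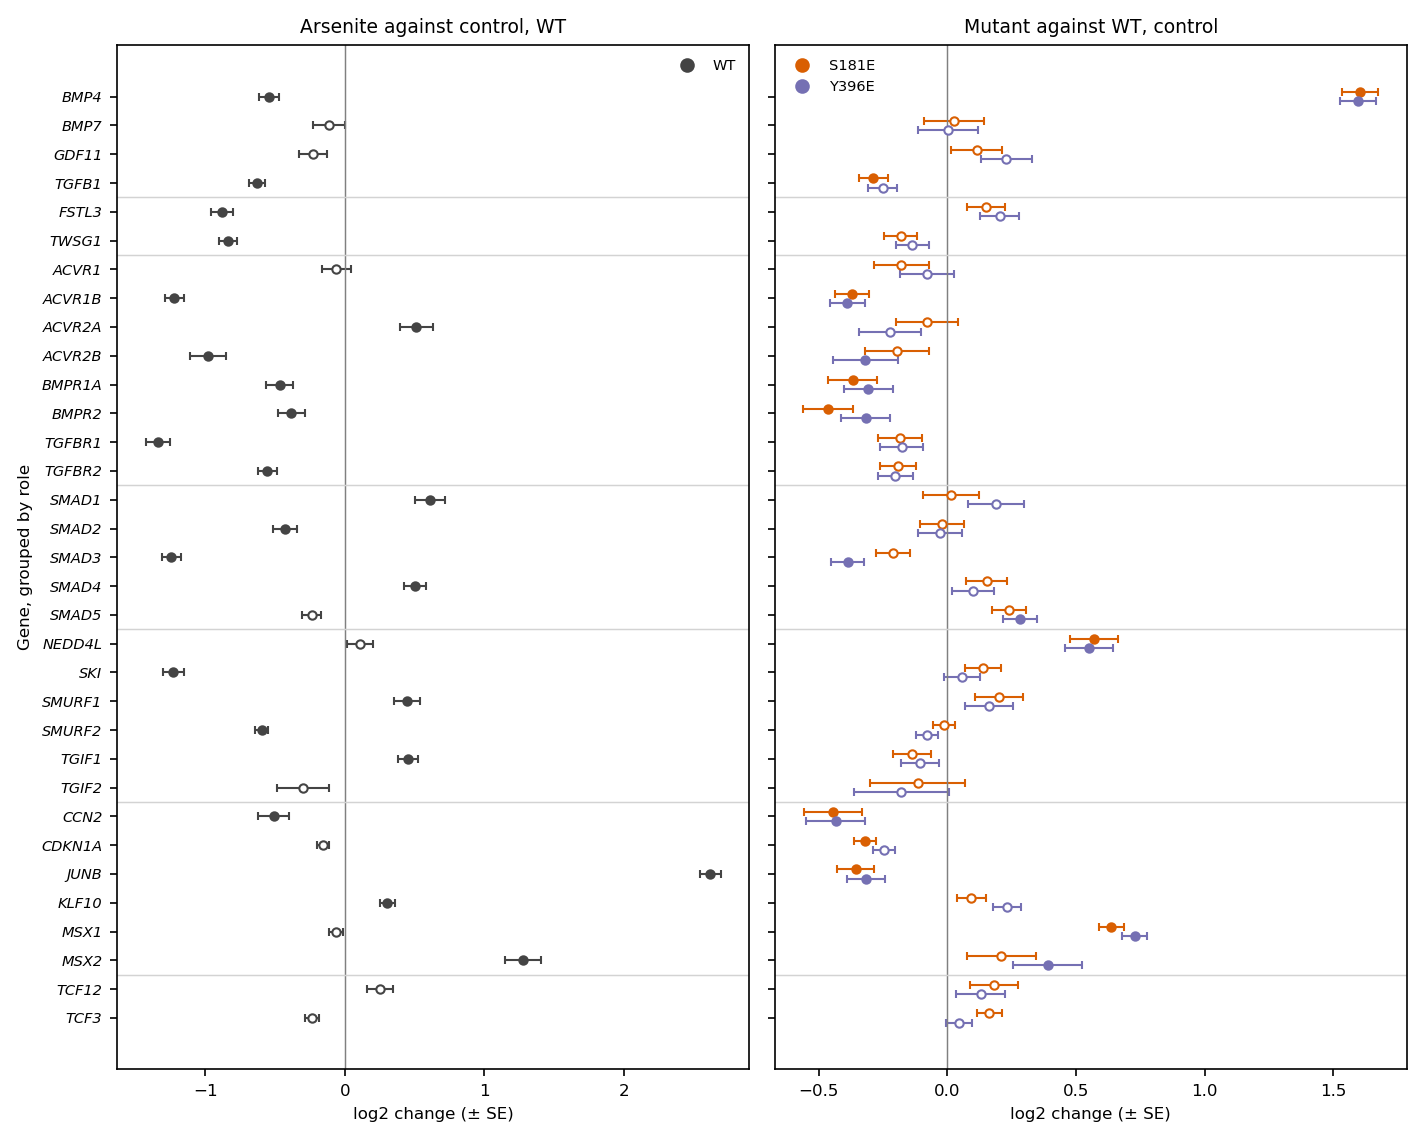
Log2 changes (± SE) of the pathway genes above 10 CPM, reported here, grouped by role from ligands (top) through antagonists, receptors, SMADs, intracellular regulators and other SMAD targets to E proteins, for arsenite in WT cells (left) and for S181E and Y396E against WT in control (right), 3 libraries per group. Filled points passed the test and open points did not. JUNB (2.62) stands farthest to the right in the left panel and BMP4 (1.60 and 1.59) in the right panel.

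The genes whose levels followed each member most closely over the 24 libraries were named by Pearson's r of log2 CPM, as a description, since these libraries share the arsenite contrast. For ID1 they were ANAPC15 (r = 0.991), RNF126 (0.989) and NME1 (0.989), and for ID2 ANKRD33B (0.994), SZRD1 (0.994) and RPL22L1 (0.994). For ID3 they were DKK1 (0.994), PDLIM2 (0.991) and DYNLT1 (0.991), and for SKIL CHD8 (0.987) and ECPAS (0.982) are given. Of these DKK1 encodes a secreted Wnt antagonist.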

How the data were processed

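Poly(A) RNA from clarified lysates of 26 dishes was sequenced with a stranded kit. The authors aligned reads to hg38 with STAR 2.7.11b and counted them per gene with featureCounts 2.0.6 (strand setting 2, GENCODE 46), and the deposited values are raw counts, not normalized. Gene names came from GENCODE 44, which matched 62541 of 63086 identifiers (99.1%). Samples were grouped by their labels.

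Following the study's methods, protein-coding genes above 10 CPM in at least 12 of the 24 transgenic libraries (9099 genes) were scaled by TMM (factors 0.865 to 1.086) and fitted with edgeR 4.0.16 in R 4.3.3 (glmQLFit and glmQLFTest, 1 mean per group, 16 residual degrees of freedom). The study's text scales before it filters, so its set may differ. Adjustment was by Benjamini-Hochberg across every gene in the fit, and a gene was called at an adjusted p under 0.05 and a fold above 1.2. Standard errors were derived from the F statistic of each test. Low members were read from the same fit with edgeR's filterByExpr (12934 genes). The fitting script was tested on simulated data.

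The members, pathway lists and naming rule were chosen with earlier results of these data known. The rule named the 8 members, up to 3 called pathway genes per list and direction in WT arsenite, 2 per direction in each mutant comparison, and the 3 genes most like each member. Some genes that the rule named are not reported here. In the text, BMPR2 and CCN2 values outside their own named comparison were chosen after their values were seen. Replicates were independent dishes of 1 population, so p-values measure the spread between dishes. No pair of libraries held identical counts. The correlation of deviations between same-numbered libraries was 0.291 to 0.525 for RQ against WT in control and 0.147 to 0.15 in arsenite, so the numbers pair those samples, and 23 of 24 libraries were closest to their own number. The fits reported leave this pairing out. Alternatives were DESeq2 1.42.0, its size factors, library totals, other filters, only the groups compared, a replicate block and leaving out each library.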

Additional observations from a re-analysis of the deposited data

Results flagged for a closer look

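The arsenite response of 2 members differed between populations in the test of the difference itself. The fall of ID2 was smaller than in WT by 0.502 (log2) in S181E and by 0.598 in Y396E. The fall of ID3 was smaller by 0.319 in S181E and by 0.532 in Y396E. In WT the 3 arsenite libraries of ID2 lay between 45.96 and 47.2 CPM. Its control libraries lay at 268 to 311 CPM in WT, 209 to 246 CPM in S181E and 239.9 to 245 CPM in Y396E, so the starting level differed too. The S181E value of ID3 fell under the fold threshold with library totals only (0.20) and without WT control replicate 2 (0.24). The test for a single outlying value within a group needs at least 4 libraries and was not run on these groups of 3.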

How the results depend on the processing

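No called member changed direction under any alternative. Of 3660 alternative values of the 8 members, 3567 kept their side of the threshold, 54 lost a call and 39 gained one, and 46 changed sign while not called under either setting. Of the 120 member values, 94 kept their call throughout. The 4 genes above 10 CPM stayed called for arsenite in each population in all fits without 1 library (4 to 4).

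With library totals only, RQ against WT in control had 2 members called in place of 0 (ID2 and ID3) with either filter, and the difference of the S181E response from that of WT had 1 of the 8 called in place of 2. In the fit of genes above 10 CPM, ID3 lost and SKIL gained that call (-0.73, adjusted p = 0.0474). The median over the whole table shifted under totals by 0.158 (S181E) and 0.127 (Y396E) in control, by 0.157 and 0.163 for arsenite in WT and RQ, and by -0.112 and -0.102 for the response differences of S181E and Y396E.

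Leaving out 1 library gave 0 to 1 members called for RQ against WT in control and 0 to 1 in arsenite with either filter, 3 to 6 of 8 for S181E against WT in arsenite, and 1 to 3 for the S181E response difference with either filter. Counts for arsenite in WT ran from 5 to 8 of 8.

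The fit with the replicate number as a block changed the call of 1 member value, SMAD6 in Y396E against WT in control (0.49, adjusted p = 0.0432). It changed no other member's call. Every same-numbered correlation was over 0.1 for RQ against WT alone, though single values reached 0.309 for S181E and 0.421 for Y396E against WT in control. With only the groups compared in the fit, SKIL in Y396E against WT in arsenite (adjusted p = 0.187), SMAD6 for arsenite in Y396E (adjusted p = 0.0904) and SMAD7 in Y396E against WT in arsenite (adjusted p = 0.167) lost their calls, and the cause was not tested. SMAD7 and ID4 had few counts per library, so their values carry the widest errors among the members. SMAD7 in S181E against WT in control was not called in the fit reported but was with DESeq2 (adjusted p = 0.0453), library totals (adjusted p = 0.0268) and only the groups compared (adjusted p = 0.00534). The smaller fall of ID3 in S181E lost its call with library totals only (0.20, adjusted p = 0.045).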
